A study of Mus musculus with 670 samples.

Results

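The cytosolic ribosomal protein genes were followed in single skeletal stem cells from mouse long bones at 3 ages. The 89 members were the rows whose symbol has the form Rps or Rpl with a number and at most a short suffix, together with Rplp0, Rplp1, Rplp2 and Rpsa. Symbols with a -ps ending, given to pseudogenes, were left out. Of the 55604 gene rows, 36 were members of the small (40S) subunit and 53 of the large (60S) subunit. GENCODE annotates 83 members as protein coding and 6 as processed pseudogenes, the latter being Rps4l, Rps12l1, Rps3a2, Rps3a3, Rpl6l and Rpl32l. All 89 are accounted for below.

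Each cytosolic ribosome is built in the nucleolus from ribosomal RNA and a set of proteins, most of them encoded by a single active gene and present once per ribosome. The 40S subunit reads the mRNA and the 60S subunit joins amino acids. Mammalian ribosomal protein mRNAs start with a C followed by a run of pyrimidines, the 5′ terminal oligopyrimidine (TOP) motif, through which LARP1 and mTORC1 adjust their translation to growth signals, and MYC raises their transcription. Ribosomal protein genes also have many processed pseudogene copies, so short reads can match more than one locus. Skeletal stem cells give rise to cartilage, bone and stroma, and matrix-making cartilage cells have a high demand for protein synthesis.

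All cells came from male mice, were sorted by flow cytometry directly from digested long bones without culture or treatment, and were sequenced with SmartSeq2, a full-length method with 1 cell per well that does not mark strand. Postnatal day 3 was represented by plate 9 (batch 3), 2 months by plates 1, 3 and 4 (batches 4, 5 and 1), and 24 months by plates 2, 5 and 12 (batches 3, 2 and 3). No label names an animal or a strain, so each age is treated as 1 sample without p-values, and differences between plates of an age serve as a description of spread. No batch holds 2 months together with another age, so in comparisons with 2 months a difference of batch and one of age cannot be told apart.

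Wells with at least 1000 genes and 50000 gene reads, of which less than 20% were mitochondrially encoded, were kept as cells. From 670 wells this left 68 cells at postnatal day 3, then 15, 70 and 69 on plates 1, 3 and 4, and 5 on each plate of 24 months. Plate sums held 10719403 to 75457637 gene reads. Cd200, a surface marker of mouse skeletal stem cells, had reads on all 7 plates (38.3 to 1506 CPM, counts scaled to a common total of gene reads per plate), and Itgav, which pairs with it in that definition, had 0 CPM on plate 1 and 1.0 to 123.6 CPM elsewhere. The 5 genes that the definition excludes (Ptprc, Tek, Thy1, Enpep and Eng) summed to 25.1 CPM at postnatal day 3, 0.15 to 1.68 CPM at 2 months and 0 at 24 months. In the newborn, Enpep had 20.1 CPM and Eng 5.02 CPM, beside 7.12 CPM of Itgav. All 8 haematopoietic, 6 erythroid and 6 endothelial marker genes were at 0 on the 3 plates of 24 months. Elsewhere their summed levels were at most 31.8, 255.1 and 4.8 CPM, the erythroid maximum being on plate 1. The summed level of 8 chondrocyte genes was 77254 CPM at postnatal day 3, 62897 to 83530 CPM at 2 months and 2858 to 11599 CPM at 24 months, with 4 to 6 of the 8 at 0 on the plates of 24 months. Fibroblast genes (8 listed) summed to 6218 CPM at postnatal day 3, 819 to 4399 CPM at 2 months and 5162 to 14137 CPM at 24 months, where 5 to 7 of the 8 were at 0. Dcn made most of the 24-month sums, with 11786, 4783 and 13207 CPM on plates 2, 5 and 12. Osteoblast genes (8 listed) summed to 26248 CPM, 8137 to 20173 CPM and 8536 to 50295 CPM, with 1 to 3 at 0 at 24 months. Col1a1 made 25382 CPM of the newborn sum, where Bglap had 4.3 and Dmp1 0 CPM. The list did not move as 1: Sp7 had 25.4 to 137.5 CPM at 2 months and 0 at 24 months, while Runx2 had 30.9 to 197.1 and 107.6 to 1106.5 CPM. These sums therefore do not name a cell type. The part of these marker levels in the results on age was not tested.

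RefSeq start sites (build GRCm38.p6) were matched for 64 of the 89 members. A C at the start followed by at least 4 pyrimidines was present at a start of 14 of them (21.9%), against 3.01% of all 27025 genes with an entry. The windows below show it, because the TOP motif is the sequence feature the family is known for. Each runs 5′ to 3′ on the gene's strand from 15 bases before the annotated start, and capitals mark the C at the start and the unbroken pyrimidines after it. Rpl15, Rps10 and Rpl35a are shown as genes that differed between ages in the results that follow, Rps6 as the classic substrate of growth signalling, and Rps27 with its paralog Rps27l as a pair in which only the first has the motif at its annotated start.
Rpl15: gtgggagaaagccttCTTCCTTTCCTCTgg
Rps10: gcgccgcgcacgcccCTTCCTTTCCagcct
Rpl35a: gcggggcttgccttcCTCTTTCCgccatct
Rps6: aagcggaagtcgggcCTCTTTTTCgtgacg
Rps27: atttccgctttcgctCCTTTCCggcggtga
Rps27l: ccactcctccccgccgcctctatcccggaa
The windows lie at chr14:18270972-18271001 (minus strand, Rpl15), chr17:27635230-27635259 (minus, Rps10), chr16:33056467-33056496 (plus, Rpl35a), chr4:86857353-86857382 (minus, Rps6), chr3:90213634-90213663 (minus, Rps27) and chr9:66946071-66946100 (plus, Rps27l). The pyrimidine run spans 13 bases in Rpl15, 10 in Rps10, 9 in Rps6, 8 in Rpl35a and 7 in Rps27. Annotated starts can lie some bases from the used start, so a window without capitals says only that these letters are not at this position. In the 300 bases around each start (250 before, 50 after), searched on both strands, CGGAAG, the core of ETS factor sites, was in 59.2% of 76 member windows and 16.9% of all 32851 windows. CTTTCC, which can overlap a TOP run, was in 48.7% against 26.6%, and TATAAA in 10.5% against 13.6%.

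The ribosomal protein genes took a larger share of gene reads in newborn cells than at 24 months, while 2 months overlapped both. Summed over the members, the share was 2.10% on the plate of postnatal day 3. On plates 1, 3 and 4 of 2 months it was 2.31%, 1.34% and 1.52%, a mean of 1.72% ± 0.518 (SD, n = 3 plates). On plates 2, 5 and 12 of 24 months it was 1.48%, 1.19% and 1.37%, a mean of 1.34% ± 0.149 (SD, n = 3 plates). All 3 plates of 24 months lay below the newborn plate, and the 2 of them in the newborn plate's batch gave a difference of −0.679 percentage points against −0.758 over all 3. The plates of 2 and 24 months overlapped. Their difference of −0.377 percentage points was smaller than the SD between the plates of 2 months, and was −0.0819 without plate 1. Counting error was small beside this, with exact 95% binomial intervals of 2.30% to 2.32% on plate 1 and 1.36% to 1.37% on plate 12. Against the newborn plate, the mean of 2 months was lower by 0.382 percentage points. With TMM scaling (trimmed-mean factors between plates) it was lower by 0.0489, on rescaled levels that are no longer percentages of gene reads.

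**Figure D1:**
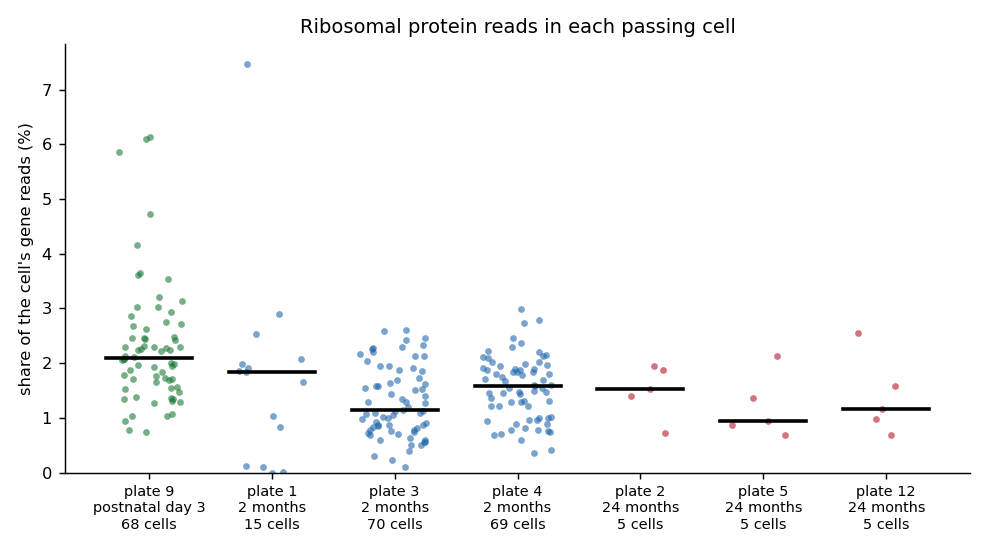
Share of each passing cell's gene reads that fell in ribosomal protein genes (y axis, percent) by plate and age (x axis). Points are cells and black bars are medians, 2.10% on the newborn plate, 1.14% to 1.83% on the plates of 2 months and 0.94% to 1.52% on those of 24 months.

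Single cells spread far more widely than plates. Shares ran from 0.74% to 6.14% at postnatal day 3, from 0.0020% to 7.46% at 2 months and from 0.69% to 2.54% at 24 months. The cell at 7.46% was on plate 1, held 2052020 gene reads and 1069 genes, and gave 11.9% of its ribosomal protein reads to Rps4x and 8.05% to Rps14. Without it the difference between 24 and 2 months was −0.187 in place of −0.377 percentage points, so this cell carried a large portion of the plate 1 sum. The 3 highest newborn cells, at 6.14%, 6.09% and 5.85%, were led by Rpl29 in the first and by Rpsa in the others, and held 1151 to 1508 genes each.

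The balance between the subunits was similar at most plates. The 40S members took 39.02% of ribosomal protein reads at postnatal day 3, 42.96%, 37.6% and 38.4% on plates 1, 3 and 4, and 40.7%, 28.1% and 41.7% on plates 2, 5 and 12. Plate 5 of 24 months stood below the other 6 plates. Within cells, 40S and 60S reads at equal depth ranked together, with Spearman's rho of 0.817 on plate 9 (68 cells), 0.797 on plate 1 (15 cells), 0.808 on plate 3 (70 cells) and 0.609 on plate 4 (69 cells). These cells share a plate and a fixed total, so rho is a description. Single members tracked each other only weakly: the median rho over pairs of members found in at least 50% of cells was 0.213 on plate 9, 0.208 on plate 3 and 0.139 on plate 4, against 0.0194, 0.0447 and 0.0407 over pairs of other genes. On plate 1 it was 0.563 against 0.4996 with 15 cells.

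The number of ribosomal protein genes seen in a cell was highest in the newborn and lowest at 24 months. After each cell was thinned to 50000 gene reads, a median of 64 of the 83 coding members had a read at postnatal day 3. Medians were 44, 43 and 50 on plates 1, 3 and 4, and 36 on each of plates 2, 5 and 12. The ages did not overlap as plate medians, although cells did, with 41 to 76 members at postnatal day 3, 0 to 73 at 2 months and 17 to 59 at 24 months. All genes moved the same way: the thinned cells held a median of 1759 genes on plate 9, 1117 to 1281 at 2 months and 785 to 921 at 24 months, and the part of this general difference in the members' count was not tested. Fewer cells expressing a gene and less RNA per cell cannot be told apart in plate sums.

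**Figure D2:**
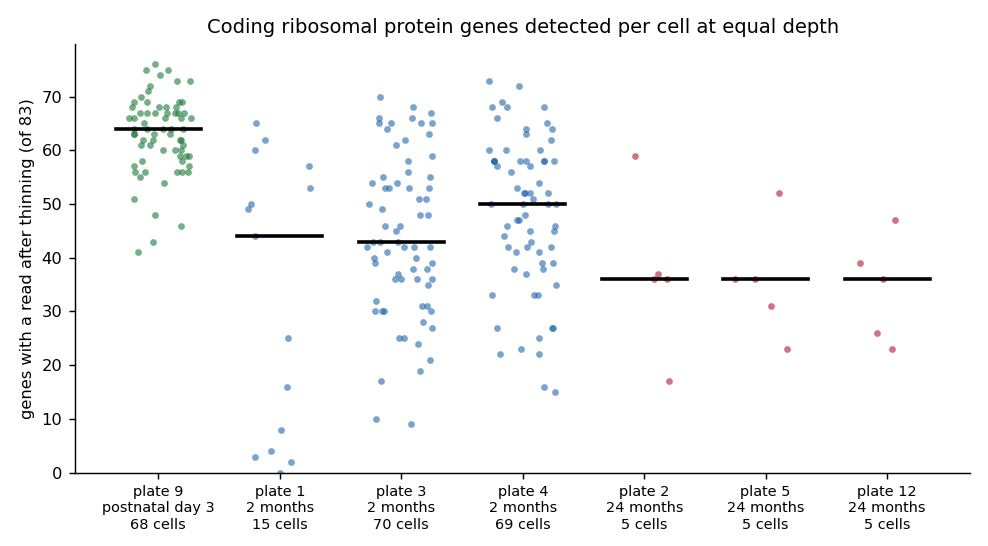
Coding ribosomal protein genes with at least 1 read per cell after thinning to 50000 gene reads (y axis, of 83 genes) by plate and age (x axis). Points are cells and black bars are medians, which fall from 64 on the newborn plate to 43 to 50 at 2 months and 36 on each plate of 24 months.

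Between 24 and 2 months, 9 members were lower in passing cells, 8 of them small-subunit genes (1 of these the annotated pseudogene Rps3a2), and none was higher. The rule of size asked for 10 CPM or more at the higher age, a 2-fold difference or more on the log2(CPM + 1) scale, and plates of the ages that do not overlap. Of 82 members that reached 10 CPM, 9 were lower, 8 of 35 in the 40S group and 1 of 47 in the 60S group. The same rule called 29.7% of all 8804 genes lower and 1.54% higher, so the members' 10.98% lower is below the background. The median log2 fold was −0.32 over 84 members with at least 5 CPM (−0.73 for 40S and −0.07 for 60S) and −2.63 over all 10389 such genes, 4224 of which had 0 reads at an age (−2.56 with these set to the level of 3 reads over the age). No member of the 84 had 0 reads at an age. All genes were not matched to the members for level, and the part of level in these gaps was not tested. Without plate 1 the members' median was 0.03, and it was −0.23 for the 40S and 0.10 for the 60S members.

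These calls and their split by subunit changed with the filter on cells. With cells of at least 500 genes 3 members of 40S and 2 of 60S were lower, and with no filter 2 and 2, with 2 members higher in each. With cells of at least 2000 genes and 200000 reads 15 and 13 were lower and 13 higher. At 24 months that filter left only the plate 2 cell of 2296 genes, and at 2 months it left no cell of plate 1. All 8 coding genes that were lower (Rps27a, Rps4x, Rps2, Rps7, Rps13, Rps10, Rps20 and Rpl15) lost the call or turned direction both with cells of at least 500 genes and with no filter, and Rps13 and Rps27a also lost it with cells of at least 2000 genes. The members' median was −0.04 with cells of at least 500 genes (−0.06 for 40S, −0.02 for 60S) and 0.11 with no filter. The median over all genes moved as well, to −0.36 and −0.26.

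Rps27a encodes ubiquitin fused to the 40S protein eS31 and lies at chr11:29545846-29548109 (GRCm38). Its level was 210, 70.2 and 89.5 CPM on plates 1, 3 and 4 of 2 months and 11.2, 0.28 and 0.18 CPM on plates 2, 5 and 12 of 24 months, with 111.98 CPM at postnatal day 3. The log2 fold between 24 and 2 months was −4.67. All plates of 24 months were low, and 97.9% of their reads came from 1 cell. At equal depth Rps27a was seen in 1 of 15 cells of 24 months (6.67%, exact 95% interval 0.169% to 31.9%), against 74 cells at 2 months (48.1%, 39.9% to 56.2%) and 54 of 68 at postnatal day 3 (79.4%, 67.9% to 88.3%). Such an interval covers the error of counting alone, because PCR copies molecules before they are read and cells of an age are not separate animals.

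Rps4x, the X-linked gene of the 40S protein eS4 (chrX:102184941-102189394), had 1090, 196.6 and 274.1 CPM on plates 1, 3 and 4 and 144.1, 82.1 and 0 CPM on plates 2, 5 and 12 (log2 fold −2.77). Plate 1 was far above the others, with 38.9% of all 2-month reads of the gene in 1 cell, and without plate 1 the log2 fold was −1.63. Rps2, encoding a protein at the mRNA entry channel, had 787, 271.9 and 333 CPM at 2 months and 213.4, 166.99 and 72.4 CPM at 24 months (log2 fold −1.61). Its log2 fold without plate 1 was −0.998, just short of the rule. Both genes were lower on every plate of 24 months than on any plate of 2 months, as the rule requires.

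Rps13, Rps10, Rps7 and Rps20 were the other coding 40S genes that were lower. Rps7, a protein needed for maturation of the 40S rRNA, was the most even at 2 months, with 271.9, 243.6 and 252.4 CPM against 114.98, 26.7 and 121.4 CPM at 24 months (log2 fold −1.54), and was seen in 8 of 15 thinned cells of 24 months. Rps13 had 88.2, 61.98 and 75.3 CPM at 2 months and 13.7, 47.4 and 0.44 CPM at 24 months (log2 fold −1.82). Rps10, whose protein sits on the head of the 40S subunit, had 47.7, 37.98 and 45.1 CPM against 1.80, 0 and 34.8 CPM (log2 fold −1.75), with 91.2% of the reads of 24 months in 1 cell. Rps20 had 116.5, 59.2 and 98.8 CPM against 14.2, 52.3 and 49.2 CPM (log2 fold −1.23), and without plate 2 the fold was −0.84 and no longer met the rule. The 24-month values of each gene were uneven between plates of 5 cells. Rps10 and Rps13 turned to 0.25 and 0.19 when cells of at least 500 genes were used.

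Rpl15 was the 60S gene that was lower. It encodes a protein of the large subunit that binds 28S rRNA, lies at chr14:18267823-18271391, and had 387, 185.1 and 230 CPM on plates 1, 3 and 4 against 150.6, 23.04 and 44.7 CPM on plates 2, 5 and 12 (log2 fold −1.86). It was seen in 5 of 15 thinned cells of 24 months (33.3%, 11.8% to 61.6%) and 98 cells at 2 months (63.6%, 55.5% to 71.2%). Rpl15 shares reads with the pseudogene row Rpl15-ps3, which held most of the 56.7 pseudogene reads counted per 100 reads of the gene. The pseudogene rows of Rpl15 moved with it, at 216.8, 95.9 and 102.9 CPM at 2 months and 53.6, 24.9 and 29.3 CPM at 24 months, and adding them did not change the call. Its exons also overlap those of Nkiras1 on the other strand, and reads of the pair cannot be told apart without strand.

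**Figure D3:**
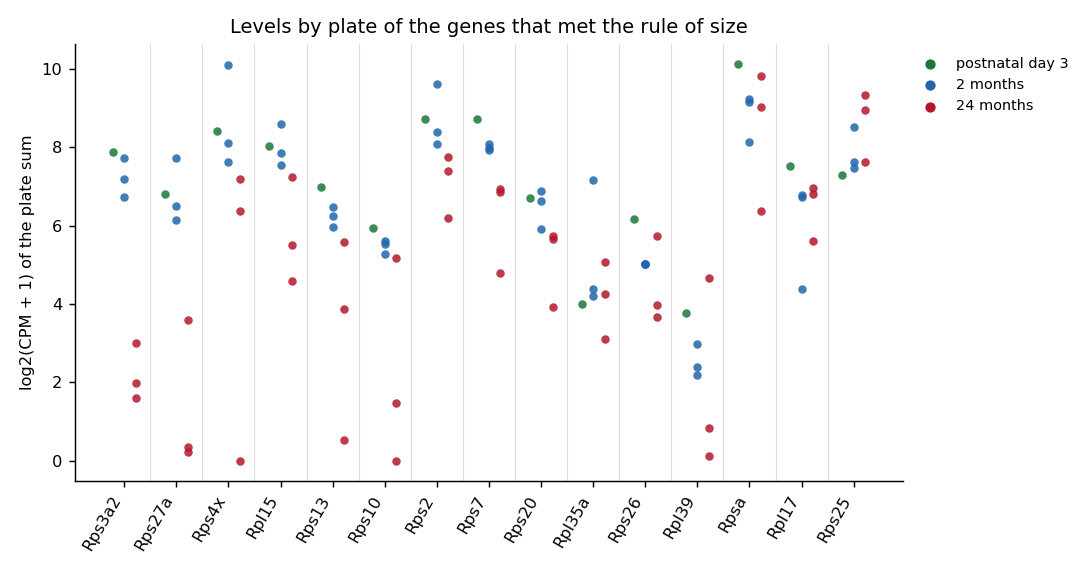
Level of each gene on each plate, as log2(CPM + 1) of the plate sum (y axis), for the 9 genes lower at 24 than at 2 months, the 5 that differed between postnatal day 3 and 2 months, and Rps25 (x axis). Points are plates coloured by age. In the first 9 genes every red point lies below every blue point, as the rule requires.

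Rps3a2 behaved unlike the other members and is annotated as a processed pseudogene of the 40S gene Rps3a1 (chr14:88123017-88123808). Its row had 234.5 CPM at postnatal day 3, 210, 144.1 and 105.9 CPM on plates 1, 3 and 4, and 2.94, 2.05 and 7.003 CPM on plates 2, 5 and 12. Rps3a1 itself had 562 CPM at postnatal day 3, 456, 355 and 258.8 CPM at 2 months and 423, 323 and 782 CPM at 24 months. Rps3a2 took 28.8% to 31.5% of the reads of the 3 Rps3a rows on every plate of postnatal day 3 and 2 months, and 0.63% to 0.89% on every plate of 24 months. The split held inside batch 3, where plate 9 is at 29.4% and plates 2 and 12 of 24 months are at 0.69% and 0.89%. In 95.7% of the values above 0 the Rps3a2 count was not whole, so these counts include reads divided between near-identical loci. With the 3 rows summed the log2 fold between 24 and 2 months was 0.0058 in place of −4.95, so the call concerns how reads were divided and not the family's total. Why the division differs with age was not tested.

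The newborn cells had a few higher members and 1 lower. Of 81 members tested between postnatal day 3 and 2 months, 4 were higher (2 of 34 in 40S, 2 of 47 in 60S) against 27.7% of all 9656 genes, and 1 was lower against 10%. The medians were close, at log2 0.24 over 84 members (0.20 for 40S, 0.25 for 60S) and 0.18 over all 11329 genes. With TMM scaling they were 0.03 (−0.04 for 40S) and 0.06. With 1 newborn plate, a plate counts as apart here when it lies outside the range of the 3 plates of 2 months.

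Rpsa, the laminin-receptor protein of the 40S subunit, had 1121 CPM at postnatal day 3 and 282.2, 604 and 569 CPM on plates 1, 3 and 4 (log2 fold 1.21). Rps26, at the mRNA exit site, had 70.6 CPM against 31.7, 31.2 and 31.8 CPM (log2 fold 1.14), the least spread between 2-month plates of the genes described here. Rpl17, beside the tunnel exit of the large subunit, had 182.7 CPM against 19.9, 105.1 and 110 CPM (log2 fold 1.21), with plate 1 low. Rpl39, a very short protein lining the exit tunnel, had 12.5 CPM against 3.54, 4.27 and 6.84 CPM (log2 fold 1.201). Without plate 1, Rpsa and Rpl17 had log2 folds of 0.93 and 0.76 and did not meet the rule. All 4 were above every plate of 2 months, as the rule requires. Rpl17 and Rps26 did not meet the rule with cells of at least 500 genes or with no filter, nor did Rpsa, Rpl17 and Rpl39 with cells of at least 2000 genes and 200000 reads, and Rps26 with TMM scaling. The filter of 2000 genes and 200000 reads left no cell of plate 1.

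Rpl35a was lower in the newborn, at 15.04 CPM against 143.96, 17.5 and 19.99 CPM (log2 fold −1.94). Plate 1 made the mean of 2 months, with 48.3% of all its reads in 1 cell, and without plate 1 the log2 fold was −0.30. Mutations of the human counterpart are a known cause of Diamond-Blackfan anaemia, as are those of Rps19, which did not meet the rule here (332 CPM against 676, 213.2 and 285.2 CPM).

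The most members met the rule between 24 months and postnatal day 3. Plates that do not overlap are easier to obtain with 1 newborn plate, so this count is not on equal terms with that between 24 and 2 months. Of 83 members tested, 28 were lower, 16 of 35 in 40S and 12 of 48 in 60S, and 1 was higher. Of all 9062 genes, 53.6% were lower and 2.59% higher, so the 33.7% of members lower is again under the background. The median log2 fold was −0.43 over 84 members (−0.79 for 40S, −0.38 for 60S) and −2.63 over all 10275 genes (−2.57 with the 4306 genes at 0 in an age set to the level of 3 reads). No member of the 84 was at 0 in an age, and the part of level in these gaps was again not tested. With batch 3 only, plates 2 and 12 against plate 9, 26 members were lower and 2 higher. With cells of at least 500 genes 13 members were lower and 2 higher, and with no filter 10 and 3. The members' medians were then −0.08 and −0.10, and those over all genes −0.40 and −0.29. The comparison shares the newborn plate with the one above and the plates of 24 months with the first, so the 3 sets of calls are not independent.

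**Figure D4:**
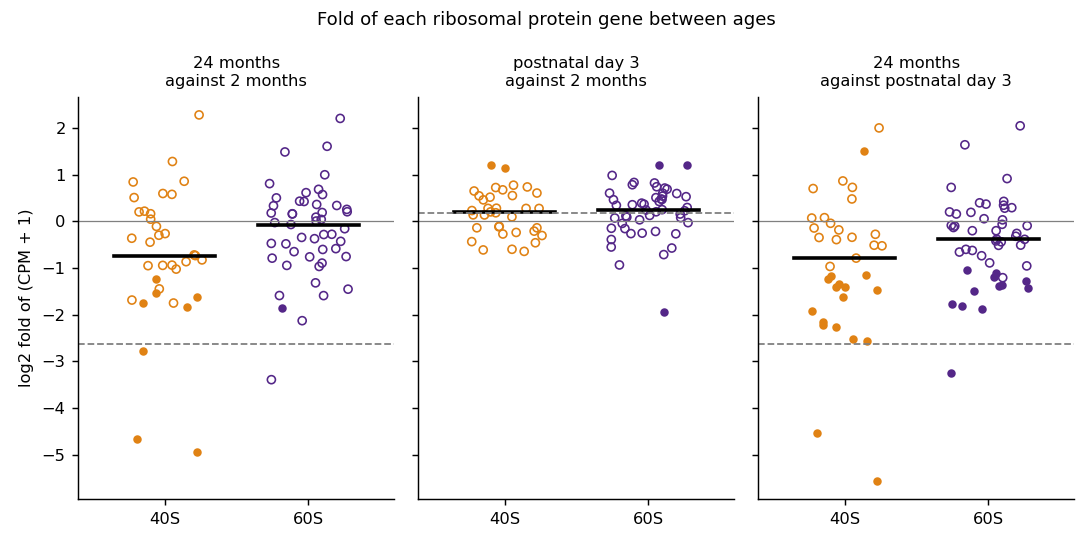
Log2 fold of (CPM + 1) between ages (y axis) for each 40S and 60S member with at least 5 CPM at either age (x axis), in the 3 comparisons. Filled points met the rule of size, black bars are medians (−0.73 and −0.07 in the first panel), and dashed lines are the medians of all genes (−2.63, 0.18 and −2.63).

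Among the 16 lower 40S members were all 8 that were lower against 2 months, and the further ones included Rps24, Rps28, Rps3, Rps9, Rps23, Rps26 and Rpsa. Rps24, another gene mutated in Diamond-Blackfan anaemia, had 129.1 CPM at postnatal day 3 and 34.1, 0 and 30.6 CPM at 24 months (log2 fold −2.53). Rps28 had 40.7 CPM against 16.4, 7.74 and 5.94 CPM (log2 fold −1.92). Rps7 and Rps13, with log2 folds of −2.26 and −2.56, stood at 424 and 126.2 CPM in the newborn. Every 24-month plate was below the newborn plate for these genes, as the rule requires, while several single plates had 0 reads. With batch 3 only, Rps3, Rps9, Rps23 and Rpsa were among the members that no longer met the rule.

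The 12 lower 60S members included Rplp0 and Rpl4, both among the most abundant per length. Rplp0, the scaffold of the stalk that recruits elongation factors, had 2458 CPM at postnatal day 3 and 466, 1031 and 1530 CPM at 24 months (log2 fold −1.28). Rpl4, which lines the exit tunnel, had 1587 CPM against 102.9, 1038 and 706 CPM (log2 fold −1.36). Rpl14 had 509 CPM against 188.6, 255.9 and 0 CPM (log2 fold −1.77), and Rpl15, at 260 CPM in the newborn, had a fold of −1.82. The others included Rpl29, Rpl31, Rpl32, Rpl37, Rpl6, Rpl22l1 and Rpl7l1, with log2 folds from −3.25 (Rpl7l1) to −1.03 (Rpl6). Without plate 2, Rplp0 and Rpl4 had log2 folds of −0.94 and −0.86 and did not meet the rule. Rpl29 and Rpl31 did not meet it without plate 12 (−0.81 and −0.88), and Rpl6 and Rpl32 neither without plate 12 nor with batch 3 only. Rpl3, by contrast, had 1806 CPM against 1320, 1466 and 1267 CPM and did not meet the rule.

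Rps25, a 40S protein required by several viral internal ribosome entry sites, was the member that was higher at 24 months. It had 157.1 CPM at postnatal day 3, 364, 175.2 and 197.9 CPM on plates 1, 3 and 4 and 195.8, 499 and 647 CPM on plates 2, 5 and 12 (log2 fold 1.504 against postnatal day 3). Plate 2 overlapped the plates of 2 months, so the comparison with 2 months (log2 fold 0.86) did not meet the rule. The gene was also broadly detected, in 98.5%, 91.6% and 93.3% of thinned cells at postnatal day 3, 2 months and 24 months. Its exons overlap those of Trappc4 and Ccdc84 on the other strand.

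Members fixed for their function mostly kept overlapping plates between 24 and 2 months. Per length, Rplp0 and Rpl3 had the highest levels of all coding members, with means over ages of 1268 and 1092 CPM per kilobase of transcript, followed by Rps18 at 865, Rps14 at 768 and Rpl4 at 725. Rpl3, which shapes the peptidyl transferase centre, was steady, with 1302, 1185 and 1316 CPM at 2 months and 1320, 1466 and 1267 CPM at 24 months. Rps6, the phosphorylation target of S6 kinase, had 357, 342 and 365 CPM at 2 months and 489, 392 and 346 CPM at 24 months. Plates of 2 and 24 months overlapped for both genes.

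The other stalk proteins are Rplp1 and Rplp2, which bind Rplp0 as dimers. Rplp1 had 78.3 CPM at postnatal day 3, 159.05, 78.02 and 113.2 CPM at 2 months and 36.7, 126.97 and 125.2 CPM at 24 months. Rplp2 had 34.7 CPM, then 55.75, 16.7 and 23.1 CPM, then 30.9, 0 and 36.8 CPM. Neither met the rule in any comparison, unlike Rplp0 against postnatal day 3, and a difference between the stalk genes was not tested.

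Rpl5 and Rpl11 form the 5S particle that can bind Mdm2 and stabilise p53. Rpl5 had 152.3 CPM at postnatal day 3, 70.6, 106.1 and 94.95 CPM at 2 months and 77.8, 136.6 and 135.99 CPM at 24 months. Rpl11 had 78.7 CPM, then 67.97, 73.8 and 55.9 CPM, then 143.4, 69.5 and 13.3 CPM. Rpl10, a late-joining X-linked member, had 330.5 CPM, then 545, 201.4 and 190 CPM, and a mean of 232.1 CPM ± 11.4 (SD, n = 3 plates) at 24 months. The plates of 2 and 24 months overlapped for all 3 genes.

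Among the shortest proteins, Rpl41 had 204.1 CPM at postnatal day 3, 307, 100 and 122.98 CPM at 2 months and 235.3, 128.3 and 170 CPM at 24 months. Rpl38, needed in the mouse for normal skeletal patterning and translation of Hox mRNAs, had 8.24 CPM, then 10.9, 3.41 and 4.18 CPM, then 12.7, 8.86 and 4.34 CPM, under the 10 CPM the rule asks for in the age means. Rps29 had 16.1 CPM, then 43.04, 7.12 and 9.94 CPM, then 17.4, 3.92 and 11.3 CPM. None of these met the rule, and plate 1 held the highest 2-month value of each. CPM per kilobase, which already divides by length, had a Spearman's rho of 0.0066 with transcript length over the 83 coding members, across genes in the same libraries. The 20 members under 600 bases had a median of 85.8 CPM per kilobase and the 63 longer ones 133.8.

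Plates of 2 months disagreed most for Rpl7l1, Rpl35a and Rps27 among members of at least 50 CPM. Rpl7l1 had 1.70, 167.7 and 175.8 CPM on plates 1, 3 and 4, a 103.5-fold range. Rps27 had 155.02, 25.3 and 42.5 CPM, a 6.12-fold range, and Rpl35a 8.22-fold. In Rpl7l1 plate 1 was low, and in Rps27 and Rpl35a it was high.

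Paralog forms divided into silent and active ones. Rpl3l, the striated-muscle form of Rpl3, and Rpl10l, the testis form of Rpl10, had 0 reads in every passing cell, while their partners were present in most. Rpl32l was close to 0, with 0.013 CPM at postnatal day 3 and no reads at the other ages, and Rpl6l and Rps3a3 stayed at or under 2.43 CPM on every plate. Rps12l1 had 15.9 CPM at postnatal day 3, 10.2 to 48.7 CPM at 2 months and 0.14 to 29.8 CPM at 24 months. The 4 are annotated pseudogenes.

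Rpl22l1, which can replace Rpl22, was found beside it in newborn cells. At postnatal day 3, 37 of 68 cells had reads of both, 9 of Rpl22 only and 14 of Rpl22l1 only. At 2 months 29 cells had both, 26 Rpl22 only and 36 Rpl22l1 only, and at 24 months 3 of 15 had both. Rpl22l1 had 32.97 CPM at postnatal day 3 and 0, 23.2 and 1.51 CPM at 24 months (log2 fold −1.88), the lower call of the pair. Rpl22 had 59.5 CPM at postnatal day 3 and 426, 130 and 6.92 CPM at 24 months, where 74.3% of reads came from 1 cell.

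Rps27l, a p53 target, had 21.1 CPM at postnatal day 3, 10.1, 14.02 and 18.1 CPM at 2 months and 98.9, 5.22 and 3.10 CPM at 24 months. It accompanied Rps27 in 47 of 68 newborn cells, 48 cells of 2 months and 2 of 15 cells of 24 months, and cells with Rps27l and no Rps27 numbered 0, 4 and 1. Rpl7l1, a nucleolar relative of Rpl7, was found in 22 of 68 newborn cells, 39 cells of 2 months and 1 of 15 cells of 24 months. Rps4l had 555 CPM on plate 12, all from 1 cell, and 0 CPM on plates 2 and 5. Rpl39l, known from testis, was found in 15 newborn cells, 14 cells of 2 months and 1 cell of 24 months. The 24-month levels of Rps4l, Rpl39l and Rpl7l1 therefore each rest on 1 cell.

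Within 2 months, cells with reads of the cartilage gene Cnmd gave a larger share of reads to ribosomal protein genes than cells without. Cells with Cnmd reads (7, 52 and 53 on plates 1, 3 and 4) had a median share of 1.63% (0.23% to 7.46%) and the 42 cells without had 0.83% (0.0020% to 2.98%). The order was the same on each plate, with medians of 1.98% and 0.47% on plate 1, 1.47% and 0.70% on plate 3, and 1.71% and 1.12% on plate 4. Median depth also differed, at 746492 reads in cells with Cnmd and 514012 in those without. On plate 1, where the shares were furthest apart, it was 2052020 against 109328 reads, on plate 3 835640 against 730980 and on plate 4 633576 against 524933. The part of depth in this difference was not tested. At postnatal day 3 the medians were 2.10% in 42 cells with Cnmd and 2.09% in 26 without, so the newborn cells showed no such gap.

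None of the 15 cells of 24 months had Cnmd reads, and their median share of 1.37% lay above the 0.83% of 2-month cells without Cnmd and below the 1.63% of those with it. The plate medians of 24 months, 1.52%, 0.94% and 1.15%, overlapped those of 2-month cells without Cnmd, and plate 2 (1.52%) also lay within the range of those with Cnmd. Cnmd reads thus went with a larger share on the plates of 2 months but not at postnatal day 3. The presence of Cnmd reads also differed between ages. Cells of 24 months had none, and that age had the lowest mean share over plates (1.34%). A smaller portion of newborn cells than of all 2-month cells had Cnmd reads, while the newborn share (2.10%) was above the 2-month mean (1.72%). The part of cell make-up in the comparison of ages was not tested.

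**Figure D5:**
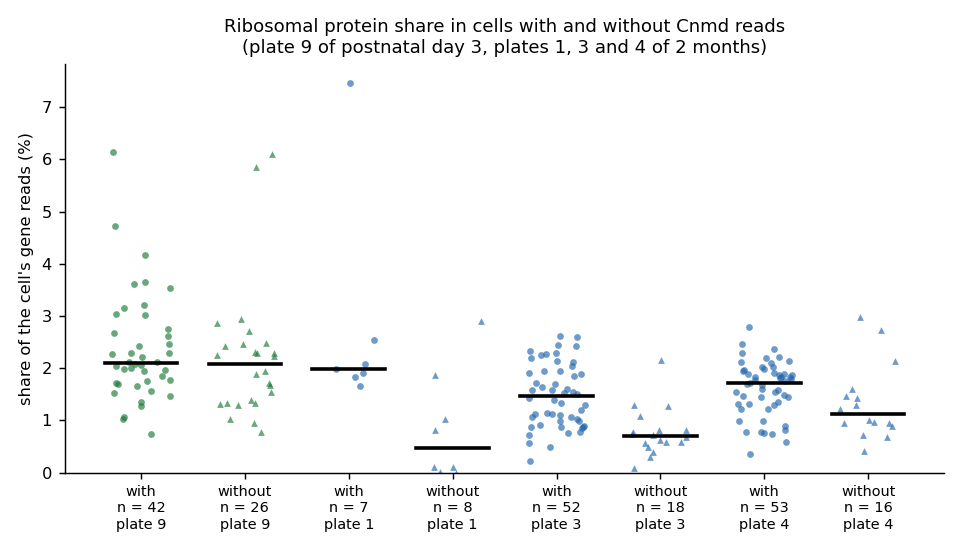
Ribosomal protein share of gene reads per cell (y axis, percent) in cells with (circles) and without (triangles) Cnmd reads on the newborn plate 9 and the 2-month plates 1, 3 and 4 (x axis). Black bars are medians, higher with Cnmd on each 2-month plate (1.47% to 1.98% against 0.47% to 1.12%) and level at postnatal day 3.

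Genes that work with the ribosome were read beside the members. Rack1, a scaffold on the head of the 40S subunit, was higher at 24 months, with 816, 852 and 913 CPM on plates 1, 3 and 4 and 991, 3633 and 3152 CPM on plates 2, 5 and 12 (log2 fold 1.59). Rack1 was the 1 of 4 ribosomal proteins outside the symbol rule that differed (25% higher, beside 1.54% of all genes). That list also holds Rpl36al and Fau. Fau, whose product carries the 40S protein eS30, had 187.3, 19.02 and 34.9 CPM against 51.2, 54.3 and 48.9 CPM.

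Of 24 translation factors and other TOP mRNAs, 1 was higher (4.17%) and 2 lower (8.33%) at 24 than at 2 months. Of all genes, 1.54% were higher and 29.7% lower. The median log2 fold of the list was 0.07. Eef1a1, the elongation factor that brings aminoacyl-tRNA, had 4542, 6560 and 6323 CPM at 2 months and 5712, 6964 and 9861 CPM at 24 months. Eif4a2, an RNA helicase of initiation, fell from 220, 140.6 and 138.3 CPM to 14.4, 0 and 0 CPM, and Npm1, the nucleolar chaperone nucleophosmin, from 204.2, 472 and 550 CPM to 57.4, 0 and 58.6 CPM. Eif3h was higher (log2 fold 1.202). At postnatal day 3, 8 of the 24 (33.3%) were higher than at 2 months and none lower, led by Eif3e, Eif4b and Eif4g1, near the 27.7% of all genes. Against the newborn 8 (33.3%) were lower at 24 months, under the 53.6% of all genes.

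Ribosome assembly genes were lower at 24 months in many cases. Of 24 (Ncl, Fbl, Nop56 and others), 12 (50%) were lower than at 2 months and none higher, beside 29.7% of all genes lower, and their median log2 fold was −3.73 beside −2.63 over all genes. Setting the 11 genes without reads at an age to the level of 3 reads gave −3.63. Rrs1, Nolc1 and Wdr12 had no read on any plate of 24 months, against age means of 68.2, 52.4 and 47.8 CPM at 2 months. Against postnatal day 3, 15 of 23 (65.2%) were lower, beside 53.6% of all genes. In the newborn 6 of 24 (25%) were higher than at 2 months, led by Nop2, Rrp9 and Tsr1, near the 27.7% of all genes. A limit of 3 reads over the plates of an age applies to genes at 0. The 24-month levels rest on 15 passing cells, and other filters on cells were not run on this list. The calls of members changed with that filter.

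Growth control genes were sparse. Of 10 tested, 2 (20%) were lower at 24 than at 2 months, Eif4ebp2 and Tsc2, against 29.7% of all genes. In the newborn 8 of 14 (57.1%) were higher than at 2 months, led by Rps6kb2, Rps6ka1 and Eif4ebp1, and 2 (14.3%) were lower, Max and Eif4ebp2, beside 27.7% and 10% of all genes. Myc had 34.98, 271.3 and 160 CPM at 2 months and 506, 0 and 0 CPM at 24 months, so its plates overlapped. Against postnatal day 3, 9 of 14 (64.3%) were lower at 24 months and 1 (7.14%) was higher, beside 53.6% and 2.59% of all genes. The median log2 fold was −2.78 beside −2.63 over all genes. The 1 higher gene was Rps6kb1, the S6 kinase, with 61.7, 726 and 535 CPM at 24 months against 20.9 CPM.

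The mitochondrial ribosomal proteins are a separate family of the organelle's own ribosome. Of 66 tested, 19 (28.8%) were lower and 1 higher (Mrps16) at 24 than at 2 months, near the 29.7% and 1.54% of all genes. The median log2 fold was −1.41 beside −2.63 over all genes, and 29 of 74 had 0 reads at an age. Mrpl12 and Mrps30 had no read on the 3 plates of 24 months, and Mrpl4 fell from 100 to 0.016 CPM between the age means. In the newborn 20 of 70 (28.6%) were higher and 5 (7.14%) lower than at 2 months, and 35 of 67 (52.2%) were lower at 24 months than in the newborn. These shares are also near those of all genes (27.7%, 10% and 53.6%).

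Members with and without the start motif were set side by side. Between 24 and 2 months the 14 members with a C and at least 4 pyrimidines at a start had a median log2 fold of −0.61, with 2 of 12 tested lower (Rpl15 and Rps10), and the 50 matched members without had −0.34, with 4 of 47 lower, both under the 29.7% of all genes. Between postnatal day 3 and 2 months the medians were 0.13 and 0.28, and between 24 months and postnatal day 3 −0.31 and −0.51. The order of the 2 groups thus changed between comparisons.

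Read assignment limits these levels. Of member values above 0, 52.98% were not whole numbers, against 13.9% in other gene rows. Such a value holds some divided reads, so this is not the portion of reads that were divided between loci. Higher counts can also make a fraction more likely, and the rows were not matched for level. The 301 pseudogene rows took 1.85 to 2.68 reads per 100 member reads on the 7 plates, and Rpl15, Rpl31, Rps23 and Rpl28 had the largest ratios, at 56.7, 42.3, 39.3 and 26.8 reads per 100. Exons of 23 members overlap those of another gene. Levels of such members are uncertain where the overlapping or copied locus is also transcribed.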

How the data were processed

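SmartSeq2 libraries of single cells were analysed from 1 table with a column per well. The authors deposited expected counts from RSEM, 1 value per gene symbol and well. Per the submitters' processing notes, bcl2fastq 2.18, STAR 2.4, RSEM 1.2.21 and build GRCm38.p6 were used. The annotation release is not given in the sources used here. Of the values above 0, 14.8% were not whole, and all were rounded. The 92 spike-in rows were left out of totals, and 1 column was not used because no sample could be matched to it.

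For each plate the passing cells' counts were added up and scaled by the plate's gene reads (CPM). An age is the mean of its plates. Folds are of CPM + 1. Medians use genes of at least 5 CPM at either age. Thinning drew 50000 reads per cell. Where an age had 0 reads, the level of 3 reads over the age was used as the limit. Coordinates are from GENCODE annotation of GRCm38, and start windows from RefSeq. Lengths are of 1 GENCODE transcript per gene, picked by its principal tag, then its support level, then greatest length (2989 bases for Rpl18). Values per kilobase depend on this choice, and no other was tried. The rule was run on simulated counts with known changes and no spread between plates beyond counting. It was therefore not tested on plates as uneven as these. TMM factors came from edgeR 4.0.16 (R 4.3.3). Plate CPM were divided by them, so share differences with TMM factors are of rescaled levels and not percentage points of gene reads. The rest used numpy 2.4.6, scipy 1.17.1 and pandas 2.3.3 under Python 3.11.15, with plots by matplotlib 3.10.9.

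Members and lists were chosen with earlier results of these data known. Genes named are a fixed set, up to 8 per direction with the largest folds, those with the 3 highest and 3 lowest means, the 3 widest 2-month spreads, and up to 3 per direction in other lists. Others named as examples, such as Rps18, Rps14 and Eef1a1, were chosen after their values were seen. Alternatives covered the cell filter, scaling, weighting, thinning, thresholds, pseudocount, rounding, pseudogene rows, batch and plates left out. They were run on the members and on all genes, and not on the other gene lists. Wells that did not pass (433) were left out. Depth was 20610505 to 56616210 reads per plate at 2 months. Values of 3 genes are not reported here, although the counts, sums and medians include them.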

Additional observations from a re-analysis of the deposited data

Results flagged for a closer look

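Wells that did not pass the filter on cells entered no comparison, yet they held ribosomal protein reads, and for that they are given here. At postnatal day 3, 27 such wells held 917262 gene reads, of which 7.91% were in ribosomal protein genes, above the 2.10% of passing cells. At 2 months the share was 1.56% over such wells (81, 26 and 26 on plates 1, 3 and 4). Plate 1, which held most of these reads, was at 1.65%, and plates 3 and 4 at 1.07% and 1.06%. At 24 months it was 1.76% (91 wells on each plate), with 2.06%, 1.37% and 1.61% on plates 2, 5 and 12. The limit that a count of 0 allows is 3 reads, far below the 72536 ribosomal protein reads in the newborn wells.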

How the results depend on the processing

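Between 24 and 2 months, 9 members differed, and the count was 41 (13 higher, 28 lower) with cells of at least 2000 genes and 200000 reads, 7 (2 higher, 5 lower) with cells of at least 500 genes and 6 (2 higher, 4 lower) with no filter on cells. All values with cells of at least 2000 genes and 200000 reads rest, at 24 months, on only the plate 2 cell of 2296 genes, and leave out plate 1 at 2 months. As a mean over cells and with thinned cells 2 members were higher. The count ran from 10 to 28 with a plate left out, 28 without plate 2, 17 without plate 5 and 15 without plate 12. With fewer plates, plates that do not overlap are easier to obtain, so these counts are not on equal terms with the 9. The share difference was −0.809 with TMM factors, −0.569 to −0.0819 with a plate left out, −0.0239 with no filter on cells, −0.108 with cells of at least 500 genes, −0.187 with cells of at least 2000 genes and 200000 reads, −0.170 as a mean over cells, −0.162 with thinned cells and −0.187 without the plate 1 cell of highest share, against −0.377. The members' median ran from −0.75 to 0.03 with a plate left out and was 0.11 with no filter on cells, −0.04 with cells of at least 500 genes, −0.67 with TMM factors and −0.07 without that cell, against −0.32. Between postnatal day 3 and 2 months, 5 members differed. The count was 3 with cells of at least 500 genes, 3 with no filter on cells, 3 at a pseudocount of 10 CPM, 12 as a mean over cells, 14 with thinned cells, 20 at 1.5-fold, 9 without the plate 1 cell of highest share (added after seeing the data), and 5 to 10 with a plate left out, 10 without plate 4. The share difference ran from 0.190 to 0.677 and the median from 0.15 to 0.46 with a plate left out. They were 0.0489 and 0.03 with TMM factors, 0.767 and 0.51 as a mean over cells, 0.762 and 0.52 with thinned cells and 0.572 and 0.38 without that cell, and the share difference was 0.584 with no filter on cells, against 0.382 and 0.24. Between 24 months and postnatal day 3, 29 members differed, against 15 with cells of at least 500 genes, 13 with no filter on cells and 28 to 38 with a plate left out. The share difference was −0.589 with cells of at least 2000 genes and 200000 reads, −0.608 with no filter on cells, −0.937 as a mean over cells, −0.924 with thinned cells and −0.827 to −0.679 with a plate left out, and the median ran from −0.87 to −0.45. The median was −0.08 with cells of at least 500 genes, −0.10 with no filter on cells, −0.67 with cells of at least 2000 genes and 200000 reads and −0.71 with thinned cells, against −0.43. TMM factors moved the median of all genes from 0.18 to 0.06 between postnatal day 3 and 2 months, and by less than 0.1 in the other comparisons. The cause of these shifts was not tested.

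Some genes named here turned direction. Between 24 and 2 months these were Rps10 (0.25 with cells of at least 500 genes, 0.30 with no filter on cells), Rps13 (0.19 and 0.24), Rps7 (0.19 with no filter) and Rps3a2 (0.0058 with its family summed, added after seeing the data). Between 24 months and postnatal day 3, Rpl7l1 was 0.99 and Rps10 0.047 with cells of at least 500 genes. With no filter Rpl7l1 was 1.08 and Rps23 0.14. With cells of at least 2000 genes and 200000 reads, Rpl31 was 0.91, Rpl32 0.71, Rps28 0.10, Rps3 0.58 and Rpsa 0.46. These folds set only the plate 2 cell of 2296 genes against the newborn plate.

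Of the alternative values, 19 moved by more than the SD between plates (shares and medians) or by more than 1.5 times (counts). That SD is wide, so others moved by much in proportion, as the values above show. No paired analysis was possible because replicate numbers were given in accession order and no result comes from a test. With 5 cells on each plate of 24 months, 1 cell can set a plate's level, and finding a gene in 0 of 15 cells still allows a share of up to 20% by the limit of 3 counts (21.8% by the exact 95% interval).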
